A study of Homo sapiens with 12 samples.

Results

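The 8 genes described here, SREBF2, HMGCS1, MVD, IDI1, SQLE, LSS, DHCR7 and INSIG1, belong to cholesterol synthesis and its control by the transcription factor SREBP2. They were taken by symbol, as a pathway chosen with earlier results of these data known, and all 8 were found among the 28278 genes of the count table. RNA sequencing was done on K562, a human erythroleukaemia line whose cells take on erythroid features when exposed to sodium butyrate, an inhibitor of histone deacetylases. The cells were wild type (WT) or lacked HRG1 (labelled HRG1-KO, here KO), a heme transporter encoded by SLC48A1. Each genotype was either left without treatment or given 0.75 mM sodium butyrate 24 h after plating and again 48 h later, with collection 6 h after the second dose, which the series places at day 8 of differentiation. This gave 4 groups of 3 libraries, named below control WT, butyrate WT, control KO and butyrate KO, where control cells are those not given butyrate. How the knockout was made, how many clones it covers and whether the 3 libraries of a group came from separate cultures are not given in the sources used here. The p-values below therefore measure the spread between these libraries, which may be technical, and an effect of the genotype cannot be told apart from one of clonal origin.

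Animal cells make cholesterol from acetyl-CoA by way of mevalonate, isoprenoids, squalene and lanosterol. SREBP2, the product of SREBF2, is held in the endoplasmic reticulum together with its escort SCAP by the INSIG proteins. When sterols run low it is carried to the Golgi, cut by 2 proteases and enters the nucleus, where it raises the genes of the pathway, INSIG1 and SREBF2 itself. The level of an SREBF2 transcript therefore does not by itself give the amount of active factor. The 6 enzyme genes lie along the route in the order HMGCS1, MVD, IDI1, SQLE, LSS and DHCR7.

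Promoter stretches are shown for SREBF2 and INSIG1, whose levels differed between the genotypes, and for LSS, which was next to them. MVD is shown for its 3 copies of the NF-Y box, a motif that SREBP2 is known to work with. IDI1, which is not shown, held 5 matches to that box over 2 windows. The stretches are RefSeq sequence of GRCh38.p14, read 5′ to 3′ on the strand of the gene and lying wholly before its start. The SREBF2 stretch is chr22:41832955-41833014 on the plus strand, with capitals marking a sterol regulatory element and an NF-Y box. The INSIG1 stretch is chr7:155297698-155297837 on the plus strand, with capitals marking an NF-Y box and an E-box. The LSS stretch is chr21:46228805-46228934 on the minus strand, with capitals marking an NF-Y box and a row of Sp1 boxes. The MVD stretch is chr16:88663162-88663261 on the minus strand, with capitals marking the NF-Y boxes.
SREBF2: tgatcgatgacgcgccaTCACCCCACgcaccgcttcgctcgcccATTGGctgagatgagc
INSIG1: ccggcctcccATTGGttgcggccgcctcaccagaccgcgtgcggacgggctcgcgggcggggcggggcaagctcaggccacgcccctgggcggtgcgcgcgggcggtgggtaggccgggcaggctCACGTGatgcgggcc
LSS: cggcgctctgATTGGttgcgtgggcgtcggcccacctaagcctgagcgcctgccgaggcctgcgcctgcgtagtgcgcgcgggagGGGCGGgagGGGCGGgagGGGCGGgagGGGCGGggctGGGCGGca
MVD: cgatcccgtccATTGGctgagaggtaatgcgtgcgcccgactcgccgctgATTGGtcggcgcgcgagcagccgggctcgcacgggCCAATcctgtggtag

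Motifs were searched on both strands in windows from 250 bases before to 50 bases after each gene start, of which the table held 11 for 7 of the 8 genes. The sterol regulatory element, searched as TCACNCCAC, was in 1 of the 11 windows, that of SREBF2, and in 1.13% of all 35116 windows of this length. The NF-Y box, CCAAT, was in 8 of the 11 windows, with at least 1 for each of the 7 genes, and in 34.6% of all windows. The Sp1 box, GGGCGG, was in 10 of the 11, likewise with a window for all 7 genes, and in 45.0% of all windows. Copies of it can overlap. The E-box, CACGTG, was in the windows of INSIG1 and LSS and in 7.26% of all windows. Matches of letters are descriptions and not binding sites, and a missing match speaks only of these letters in these windows.

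Library totals ran from 19963594 to 30348538 counts. Levels are given as CPM, counts per 1000000 counts of the library after TMM scaling, and 3 counts corresponded to between 0.0953 and 0.162 CPM, far below the level of any of the 8 genes. SLC48A1 was lower in every library labelled KO than in every WT library (log2 fold change -3.63 in control cells and -3.07 in cells given butyrate). All 11 erythroleukaemia markers examined were detected in all 12 libraries, with at least 220 counts each, while MS4A1, KRT5 and TTR, which mark B cells, epithelium and hepatocytes, were at 0 throughout. EPCAM, an epithelial gene, was present at 19.3 to 74.2 CPM, and COL1A1, a fibroblast gene, reached 154 CPM. The share of counts in the ribosomal RNA gene RNA28SN5 ran from 0.673% to 5.63% and was highest in replicate 1 of each group.

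SREBF2 was 2.10-fold higher in control KO cells, and INSIG1 was 3.72-fold lower in control and 3.91-fold lower in butyrate-treated KO cells, so the transcription factor gene and the gene of its retention protein differed between the genotypes in opposite directions. Both differences were seen with and without butyrate. In control WT, SREBF2 stood at 208, 274 and 293 CPM in replicates 1, 2 and 3, and in control KO at 483, 614 and 534 CPM. In butyrate WT it stood at 226, 229 and 317 CPM, and in butyrate KO at 434, 465 and 476 CPM. Every KO library lay above every WT library. The log2 fold change of KO against WT was 1.07 (SE 0.20, edgeR adjusted p 0.00220) in control and 0.83 (SE 0.20, edgeR adjusted p 0.0122) in cells given butyrate. The control difference passed in all 6 leave-one-out fits, and the butyrate one in 5 of 6, with an edgeR adjusted p of 0.0588 without replicate 2 of butyrate WT. A fit on the butyrate groups alone gave an edgeR adjusted p of 0.0543.

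**Figure D1:**
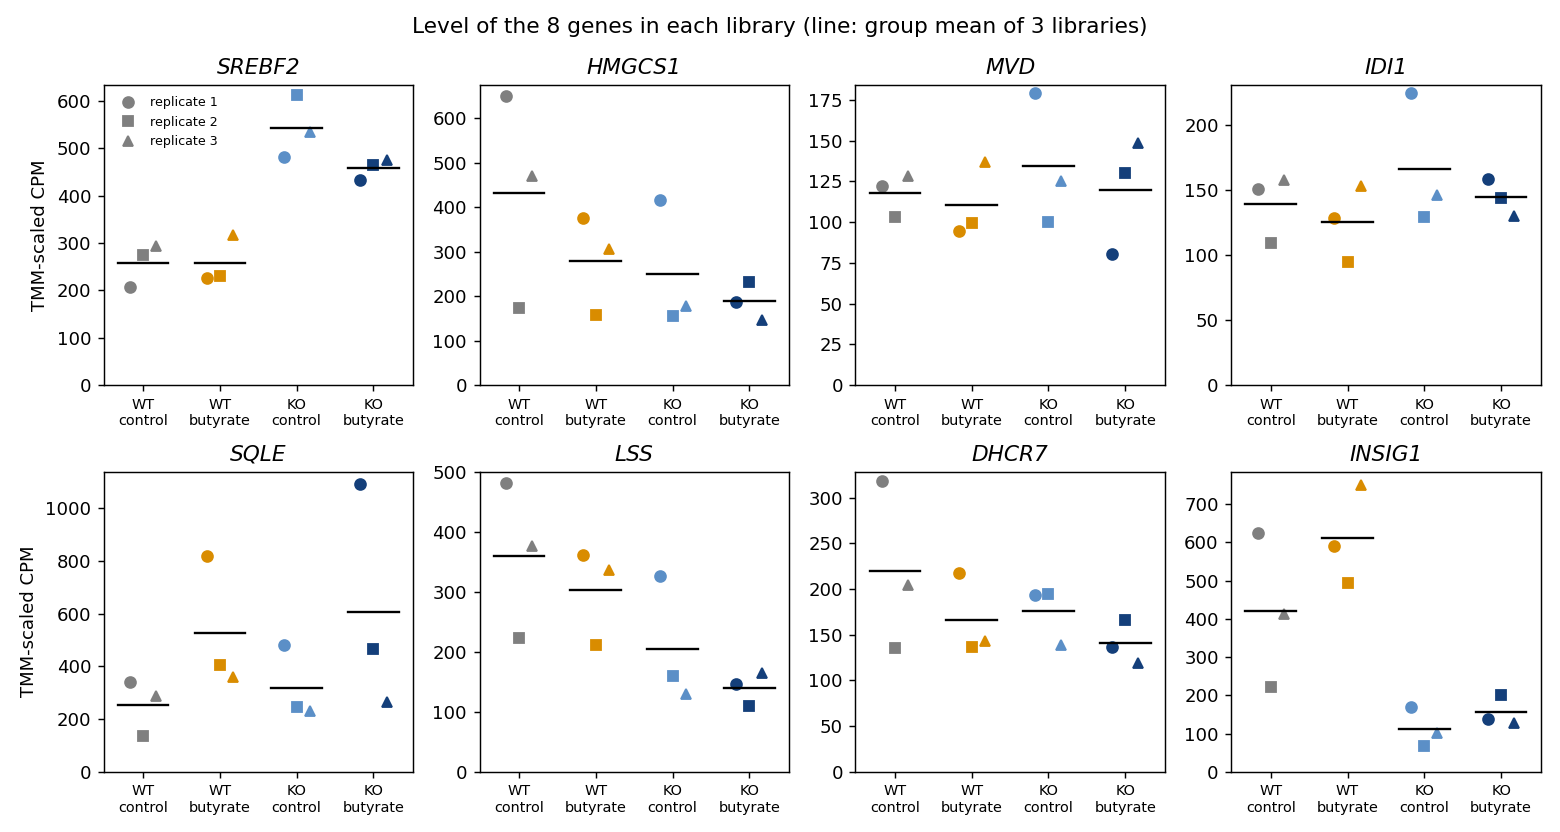
TMM-scaled CPM (vertical axes, each starting at 0) of the 8 genes in the 12 libraries, by group; symbols show replicate numbers and lines the group means. SREBF2 is at 434 CPM or above in the KO libraries and at 317 CPM or below in the WT libraries, while INSIG1 is at 201 CPM or below in KO and at 222 CPM or above in WT.

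INSIG1 encodes an endoplasmic reticulum protein that, when sterols are plentiful, retains SCAP with its SREBP cargo. Its level was 626, 222 and 412 CPM in control WT and 169, 67.6 and 102 CPM in control KO. It was 590, 494 and 751 CPM in butyrate WT and 139, 201 and 129 CPM in butyrate KO. Replicate 2 was the lowest of its group in 3 of these groups, yet the genotypes did not overlap under either treatment. The difference of KO against WT, as a log2 fold change, was -1.89 (SE 0.40, edgeR adjusted p 0.00424) in control and -1.97 (SE 0.40, edgeR adjusted p 0.00412) in cells given butyrate. Taken by replicate number, the log2 difference was -1.89, -1.71 and -2.01 in control cells for numbers 1, 2 and 3, and -2.08, -1.30 and -2.54 in cells given butyrate. Both differences passed in all leave-one-out fits, with values from -2.30 to -1.49 and from -2.22 to -1.81.

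Among the 6 enzyme genes, LSS was the one nearest to a genotype difference, and the other 5 did not pass the test in any comparison. LSS encodes lanosterol synthase, which closes squalene epoxide into the first sterol of the route. It stood at 481, 222 and 376 CPM in control WT, 327, 160 and 130 CPM in control KO, 361, 211 and 336 CPM in butyrate WT and 146, 109 and 164 CPM in butyrate KO. The control groups overlapped, through replicate 2 of WT and replicate 1 of KO, and the butyrate groups did not. The log2 fold change of KO against WT was -0.81 (SE 0.37, edgeR adjusted p 0.139) in control and -1.11 (SE 0.37, edgeR adjusted p 0.0534) in cells given butyrate. KO was lower at every replicate number, with log2 differences of -0.56, -0.48 and -1.53 in control cells and -1.30, -0.95 and -1.03 with butyrate. In the fit blocked by replicate number both differences passed, with an edgeR adjusted p of 0.0221 in control and 0.00549 in cells given butyrate. The control difference also passed without replicate 1 of control KO (log2 fold change -1.31, edgeR adjusted p 0.0238), and the butyrate one without replicate 2 of butyrate WT (edgeR adjusted p 0.0488).

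HMGCS1, the cytosolic HMG-CoA synthase that acts early in the mevalonate route, varied most between replicates of control WT. It stood there at 650, 174 and 471 CPM, against 416, 155 and 179 CPM in control KO. In cells given butyrate the values were 376, 158 and 306 CPM in WT and 187, 231 and 147 CPM in KO. The groups overlapped in each comparison. The difference of KO against WT, as a log2 fold change, was -0.79 (SE 0.48, edgeR adjusted p 0.277) in control and -0.57 (SE 0.48, edgeR adjusted p 0.467) in cells given butyrate. KO was lower at all 3 numbers in control cells and at 2 of 3 with butyrate.

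SQLE encodes squalene epoxidase, which with molecular oxygen makes the epoxide that LSS uses. It was the enzyme gene of the 8 with the highest values after butyrate. It stood at 339, 137 and 288 CPM in control WT and at 820, 405 and 361 CPM in butyrate WT, so that these groups did not overlap. In KO it stood at 481, 245 and 229 CPM without and at 1092, 467 and 264 CPM with butyrate, and replicate 3 of the butyrate group lay within the control range. The log2 fold change for butyrate was 1.05 (SE 0.52, edgeR adjusted p 0.317) in WT and 0.93 (SE 0.52, edgeR adjusted p 0.348) in KO, and neither passed. With replicate 1 of the butyrate group alone left out, the value fell to 0.20 in KO and 0.58 in WT (edgeR adjusted p 0.842 and 0.517). Replicate 1 was, however, also the highest control library in both genotypes. Without replicate 1 of all groups the value was 0.83 in WT and 0.61 in KO (edgeR adjusted p 0.157 and 0.277). Butyrate libraries were the higher at all 3 replicate numbers in both genotypes, by 1.27, 1.56 and 0.33 on the log2 scale in WT and by 1.18, 0.93 and 0.20 in KO. With replicate number as a block the edgeR adjusted p was 0.0568 in WT and 0.0826 in KO.

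MVD and IDI1 were the steadiest of the enzyme genes. MVD encodes mevalonate diphosphate decarboxylase, which forms isopentenyl diphosphate, and IDI1 the isomerase that converts this into dimethylallyl diphosphate. MVD ran from 80.4 CPM in replicate 1 of butyrate KO to 179 CPM in replicate 1 of control KO, so that both ends of its range came from KO libraries of the same number. IDI1 ran from 94.4 CPM in replicate 2 of butyrate WT to 224 CPM in replicate 1 of control KO. Group means of MVD were 118 ± 13.1 CPM (SD, n = 3) in control WT, 110 ± 23.1 in butyrate WT, 135 ± 40.6 in control KO and 120 ± 35.3 in butyrate KO. Those of IDI1 were 139 ± 26.0, 126 ± 29.7, 166 ± 50.9 and 144 ± 14.3 CPM in the same order. Neighbouring means in either order differed by less than the larger SD of the pair.

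DHCR7 encodes 7-dehydrocholesterol reductase, the enzyme of the last step on one arm of the route. It stood at 319, 135 and 205 CPM in control WT, 218, 137 and 144 CPM in butyrate WT, 194, 195 and 138 CPM in control KO and 137, 166 and 119 CPM in butyrate KO. All groups overlapped. The log2 fold change of KO against WT was -0.32 (SE 0.30, edgeR adjusted p 0.489) in control and -0.24 (SE 0.30, edgeR adjusted p 0.644) in cells given butyrate.

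Counted over the 8 genes, 2 passed an edgeR adjusted p of 0.05 between the genotypes in control cells, 1 higher (SREBF2) and 1 lower (INSIG1), beside 22.6% of the 15805 genes tested. The groups did not overlap for the same 2 genes, beside 42.3% of all genes tested. In cells given butyrate the same 2 genes passed, beside 19.0% of all genes tested, and 3 did not overlap (with LSS), beside 33.9%. With butyrate, 3 genes passed, LSS being the third, without a filter (LSS edgeR adjusted p 0.0397), by DESeq2 (0.0233), with the replicate block and without replicate 1 of all groups (0.0406). In the fit on the butyrate groups alone the 2 genes that passed were INSIG1 and LSS (0.0368). The counts of genes that passed in the main fit were near the background in both settings. The count without overlap was near it with butyrate and below it in control cells. The median log2 fold change of the 8 was -0.06 in control and -0.06 in cells given butyrate, against 0.02 and -0.00 over all genes tested. All 8 passed the filter on low counts.

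For butyrate, 0 of the 8 passed in WT, beside 2.35% of all genes tested, and 0 of 8 passed in KO, beside 3.40%. At an unadjusted p under 0.05 there were also 0 of 8 in edgeR in each genotype, and DESeq2's Wald test called 0. The groups did not overlap for 1 of 8 in WT (SQLE, higher, against 21.7% of all genes tested) and for 1 of 8 in KO (SREBF2, lower, against 24.4%). SREBF2 differed by -0.25 on the log2 scale between butyrate and control KO (SE 0.20, edgeR adjusted p 0.536) and by -0.01 in WT (SE 0.20, edgeR adjusted p 0.998). INSIG1 differed by 0.54 in WT (SE 0.38, edgeR adjusted p 0.507) and by 0.47 in KO (SE 0.38, edgeR adjusted p 0.542), and replicate 1 was the exception in both, being slightly lower in cells given butyrate. Values were negative for 6 of the 8 in WT and for 6 of 8 in KO, the positive ones being SQLE and INSIG1 in both. Whether the butyrate difference itself depended on genotype was tested by the interaction, which 0 of the 8 and 0% of all genes tested passed in edgeR. Unadjusted, 0 of the 8 and 658 of all genes had an interaction p under 0.05, and DESeq2 called 0 of the 8 and 81 of all genes. Interaction values of the 8 ran from -0.30 (LSS, SE 0.52) to 0.22 (HMGCS1, SE 0.68) on the log2 scale.

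**Figure D2:**
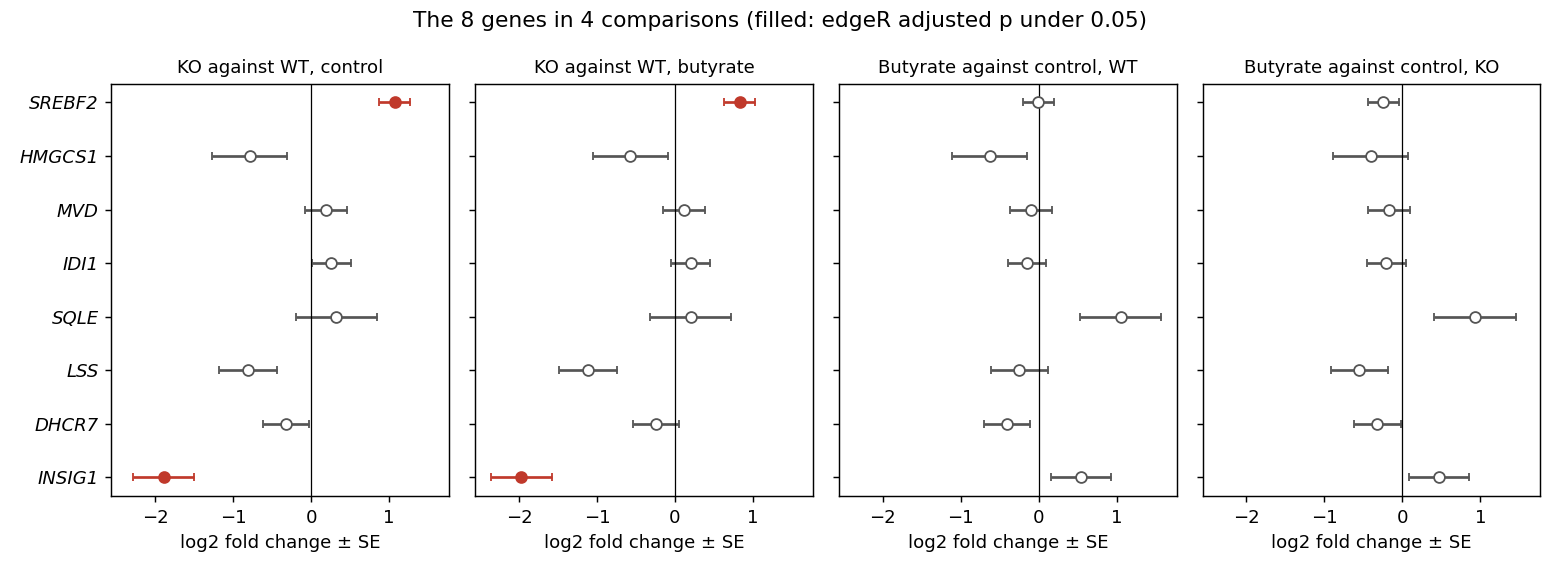
Log2 fold changes of the 8 genes with standard errors (horizontal axes) in 4 comparisons; filled points passed an edgeR adjusted p of 0.05. Only SREBF2 (1.07 and 0.83) and INSIG1 (-1.89 and -1.97) are filled, both in the genotype panels; no point is filled in the butyrate panels.

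The place of each gene in the genome was set beside its genotype difference. INSIG1 lies at chr7:155297878-155310235 and SREBF2 at chr22:41833105-41907305 (RefSeq, GRCh38.p14). Genes of chromosome 7 were lower in KO as a whole. The median of the 729 other tested genes there was -0.78 on the log2 scale in control and -0.86 in cells given butyrate. Of these 729, 271 and 282 were called lower and 30 and 25 higher. Over all 15805 genes tested, 1718 and 1405 were called lower and 1856 and 1604 higher. INSIG1 minus the chromosome 7 median was -1.11 in both settings. Of the other chromosome 7 genes, 13.4% were lower still in control and 8.92% in cells given butyrate. Among the 43 tested genes that start within 5 Mb of INSIG1 the median was -0.76 in control cells and -0.71 with butyrate. Whether the shift of the whole chromosome enters the INSIG1 difference was not tested.

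On chromosome 22 the median of the 416 other tested genes was 0.27 in control and 0.41 in cells given butyrate, and SREBF2 was above it by 0.80 and 0.42. Of those genes, 11.5% were higher than SREBF2 in control and 20.2% in cells given butyrate. LSS lies at chr21:46188446-46228774, where the median of 150 other genes was -0.33 in control cells and -0.35 with butyrate, and LSS minus that median was -0.48 and -0.76. The remaining members lay on chromosomes whose medians were closer to 0: HMGCS1 at chr5:43287470-43313412 (median 0.06 in control cells), MVD at chr16:88651940-88663091 (0.00), IDI1 at chr10:1039152-1056704 (-0.10), SQLE on chromosome 8 (-0.10) and DHCR7 at chr11:71427287-71449043 (-0.13). The use of strand in counting is not stated, and SREBF2, IDI1, LSS, DHCR7 and INSIG1 each overlap at least 1 other annotated gene, such as SREBF2-AS1, IDI2-AS1 or INSIG1-DT, so reads of both can be mixed.

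**Figure D3:**
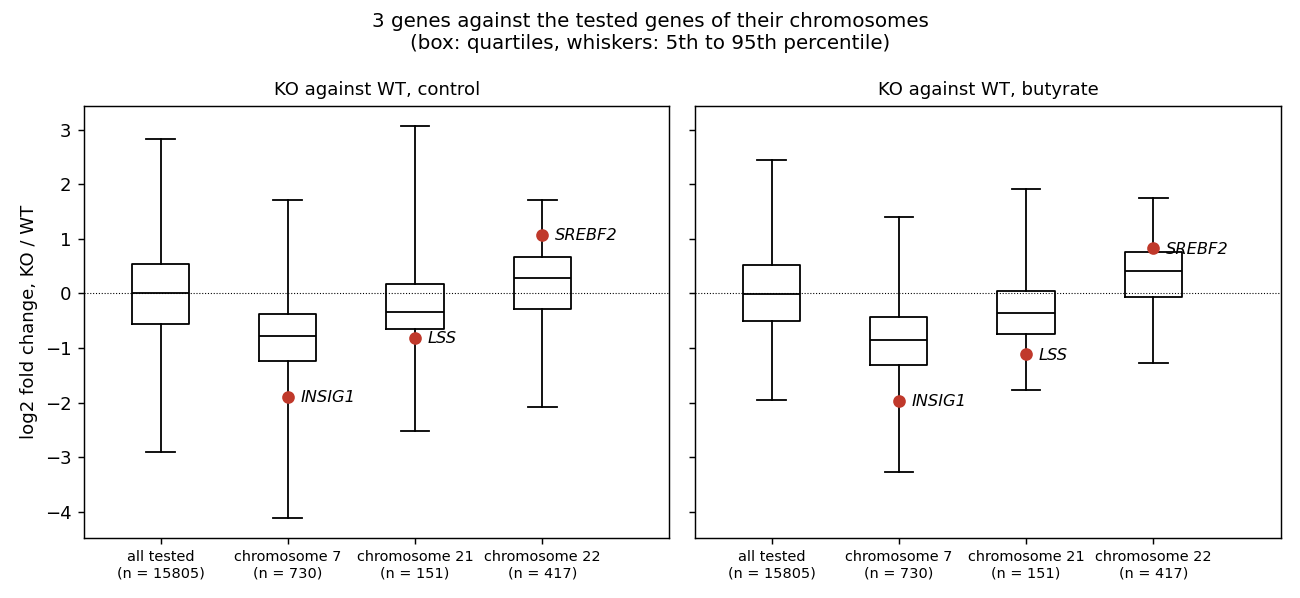
Log2 fold changes of KO against WT (vertical axis) over all 15805 tested genes and those of chromosomes 7, 21 and 22; boxes show quartiles, whiskers the 5th and 95th percentiles, and points INSIG1, LSS and SREBF2. INSIG1 (-1.89 and -1.97) and LSS (-0.81 and -1.11) lie below the lower quartile and SREBF2 (1.07 and 0.83) above the upper quartile of its chromosome, each within the whiskers.

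The other enzymes of the route did not all differ in one direction either. Of 13 further enzymes, all of which were tested, 2 differed between genotypes in control cells, SC5D higher and CYP51A1 lower in KO, and 3 in cells given butyrate, where EBP was lower as well. Over all genes tested 22.6% and 19.0% passed, so that these counts were near the background. Their median was 0.09 in control cells and 0.02 with butyrate, against 0.02 and -0.00 over all genes. SC5D, the sterol desaturase that acts just before DHCR7, stood at 28.0 ± 4.17 CPM in control WT and was higher, at 47.5 ± 11.5 CPM, in control KO (SD, n = 3; log2 fold change 0.76, edgeR adjusted p 0.0485) and was also higher in KO with butyrate (log2 fold change 1.17, edgeR adjusted p 0.00730). The control call passed in 1 of 6 leave-one-out fits, with up to 0.193 without replicate 1 of control KO, and was lost with median-of-ratios size factors in place of TMM (edgeR adjusted p 0.0563), while the butyrate one passed in all 6. EBP, the sterol isomerase acting before SC5D, was at 96.6 ± 17.1 CPM in butyrate WT and 47.0 ± 5.89 CPM in butyrate KO (SD, n = 3; log2 fold change -1.04, edgeR adjusted p 0.0258). It passed in 3 of 6 such fits, the highest edgeR adjusted p being 0.0767 without replicate 3 of butyrate KO.

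CYP51A1, the lanosterol demethylase that takes up the product of LSS, was the one enzyme of these called for butyrate in edgeR. It stood at 182, 123 and 169 CPM in control WT and at 76.0, 46.0 and 70.4 CPM in butyrate WT. In KO it stood at 101, 78.7 and 66.6 CPM without and at 37.8, 38.3 and 28.6 CPM with butyrate. Libraries with and without butyrate did not overlap in either genotype, and KO lay below WT with and without butyrate. The log2 fold change for butyrate was -1.30 in WT (SE 0.25, edgeR adjusted p 0.0211) and -1.24 in KO (SE 0.25, edgeR adjusted p 0.0224). In each genotype the call passed in 2 of 6 leave-one-out fits, but not in the WT groups fitted alone (edgeR adjusted p 0.0800). It was lost in WT without replicate 1 or 3 of the control group (0.0907 and 0.0620) or replicate 2 or 3 of the butyrate group (0.0942 and 0.0531), and in KO without replicate 1 or 2 of the control (0.0899 and 0.0857) or replicate 2 or 3 of the butyrate group (0.0781 and 0.0730). For genotype it was -0.94 in control cells (edgeR adjusted p 0.0149) and -0.88 with butyrate (edgeR adjusted p 0.0246). The control value was lost without replicate 1 of control WT (0.0566) or replicate 3 of control KO (0.0548), and the butyrate one without replicate 1 or 3 of butyrate WT (0.0553 and 0.0663) or replicate 3 of butyrate KO (0.0816). CYP51A1 lies on chromosome 7, where its difference from the median of the other genes was -0.16 in control cells and -0.02 with butyrate. With replicate number as a block, the calls among 60 other list genes tested went from 2 to 7 for butyrate in WT, from 2 to 6 for butyrate in KO, from 6 to 11 for genotype in control cells and from 7 to 12 for genotype with butyrate. Over the 13 further enzymes, 11 values were negative for butyrate in WT and 12 in KO. Their medians were -0.36 and -0.30, against 0.02 and 0.00 over all genes. Of these enzymes, 4 in WT and 2 in KO had an unadjusted edgeR p under 0.05, beside 2849 and 3122 of all genes tested.

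**Figure D4:**
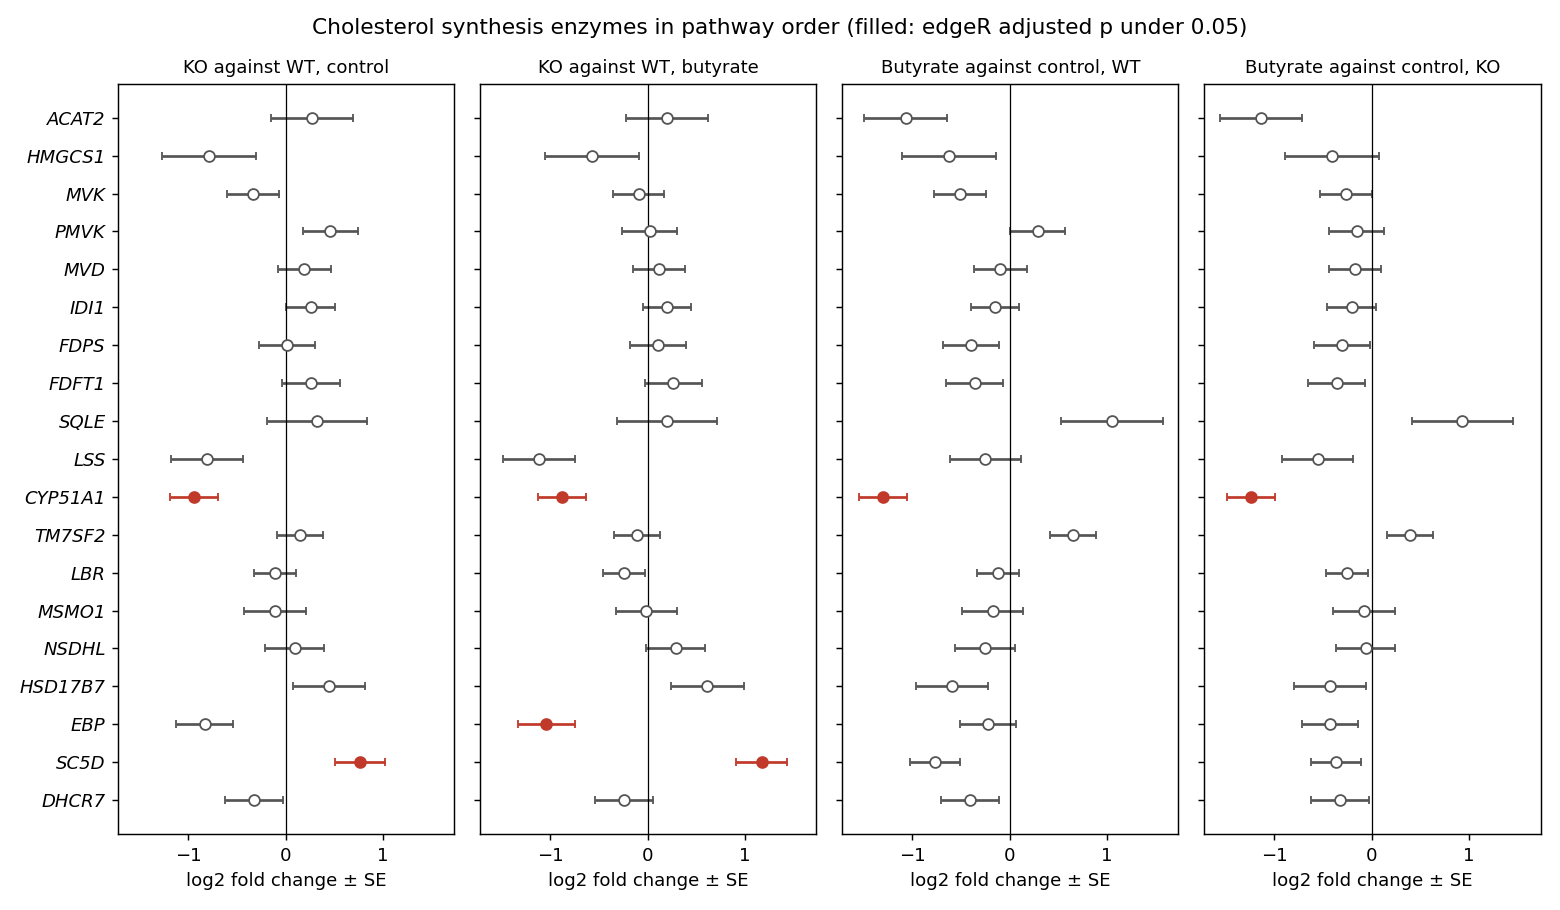
Log2 fold changes with standard errors (horizontal axes) of 19 cholesterol synthesis enzymes in pathway order from top to bottom, in 4 comparisons; filled points passed an edgeR adjusted p of 0.05. In the genotype panels the filled enzymes lie on both sides of 0 (SC5D at 0.76 and 1.17, CYP51A1 at -0.94 and -0.88), and in the butyrate panels CYP51A1 alone is filled, at -1.30 and -1.24.

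Of 10 other genes of SREBP processing, 1 was called between genotypes in control cells and 1 with butyrate, beside the same 22.6% and 19.0%. SREBF1, which encodes the related factor SREBP1, was lower in butyrate KO than in butyrate WT (log2 fold change -0.74, SE 0.22, edgeR adjusted p 0.0313) and not called in control cells (-0.55, edgeR adjusted p 0.0916). The butyrate call passed in 1 of 6 leave-one-out fits, with up to 0.0896 without replicate 2 of butyrate KO. The control difference passed without replicate 2 of control WT (0.0216). SCAP, the escort, was at 120 to 137 CPM in control WT and 139 to 179 CPM in control KO (log2 fold change 0.38, edgeR adjusted p 0.112). INSIG2, the second INSIG gene, was at 11.04 to 17.99 CPM in all 12 libraries and did not pass (0.31 in control cells, edgeR adjusted p 0.450, and -0.04 with butyrate, 0.947). In control cells MBTPS2, one of the SREBP proteases, was higher in KO (0.92, edgeR adjusted p 0.0343). It passed in 2 of 6 such fits, with up to 0.182 without replicate 2 of control KO.

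Of 8 SREBP2 targets in sterol uptake and transport, 0 were called higher and 1 lower in KO, both in control cells and with butyrate, beside 22.6% and 19.0% of all genes tested called in either direction. NPC1, which exports cholesterol from lysosomes, was that gene in both settings, with log2 fold changes of -1.73 (SE 0.31; edgeR, adjusted p 0.00176) and -1.77 (SE 0.31; edgeR, adjusted p 0.00191), each holding whichever library was dropped. It stood at 66.2 ± 14.8 CPM in control WT and 19.95 ± 5.50 CPM in control KO (SD, n = 3). The median of the other genes on its chromosome, 18, was -0.52 in control cells and -0.61 with butyrate, and that of the 18 genes within 5 Mb was 0.16 and -0.08.

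The libraries in which the 8 genes were high or low were partly shared. In control WT, replicate 2 was the lowest for 7 of the 8, the exception being SREBF2, and replicate 1 was the highest for 5. In control KO, replicate 1 was the highest for 6, while the lowest was replicate 2 for 4 and replicate 3 for 3. In butyrate WT, replicate 2 was the lowest for 5, and the highest was replicate 1 for 4 and replicate 3 for 4. In butyrate KO, replicate 3 was the lowest for 5, and the highest was spread over replicates 1, 2 and 3, with 2, 3 and 3 genes. The 8 genes together took 2896, 1377 and 2331 CPM in replicates 1, 2 and 3 of control WT, 2814, 1829 and 2505 CPM in butyrate WT, 2474, 1664 and 1584 CPM in control KO and 2375, 1914 and 1578 CPM in butyrate KO. Replicate 1 thus had the highest sum in every group, as it had the highest share of RNA28SN5. The part of RNA quality or of culture in this was not tested. Between the lowest and the highest of the 12 libraries the 8 genes spanned from 2.23-fold for MVD to 11.1-fold for INSIG1, with 7.97-fold for SQLE and 2.95-fold for SREBF2.

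The mean of the 8 centred log2 profiles over the 12 libraries was also compared with 10021 other genes holding at least 50 counts in every library. By root mean square distance the nearest were VCP (0.177), BCCIP (0.194), ALDH18A1 (0.195), SAR1A (0.202) and HNRNPUL2 (0.206), in log2 units. The distances of the 8 genes from their own mean ran from 0.281 for DHCR7 and 0.296 for IDI1 to 0.738 for SREBF2 and 0.902 for INSIG1. No gene of the pathway lists was among the 5 nearest. These 5 were picked as the smallest distances of all candidates, so their values are no measure for those of the 8 genes.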

How the data were processed

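The authors deposited a table of raw whole-number counts per gene symbol for 12 libraries, with the unit read from the values. STAR 2.7.11b, FastQC 0.12.1 and hg38 are named, per the submitters' processing notes; the counting tool, annotation, use of strand and filters are not given in the sources used here. Every column was matched by its library name. Replicates of a group differed beyond sampling noise (smallest chi-square per degree of freedom 37.2).

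Counts were analysed in R 4.3.3 with edgeR 4.0.16: filterByExpr (minimum count 10, leaving 15805 genes), TMM, a mean per group over all 12 libraries, and quasi-likelihood F-tests of 5 contrasts, with Benjamini-Hochberg adjustment over the 15805 genes and a threshold of 0.05. SE is the log2 fold change divided by the root of F. The code was tested on simulated data. Libraries with the same replicate number deviated together over genes (correlations of 0.147 to 0.595 across the 4 comparisons). Those of different numbers ran from -0.512 to 0.343. Between the butyrate genotypes the 2 kinds overlapped (same number from 0.315, different numbers up to 0.343). What the numbers mark is not given in the sources used here, so the main fit has no block. A fit with the number as a block was an alternative. The others were DESeq2 1.42.0, other scalings and filters, fits on the 2 groups compared, and leaving out libraries. Named genes are the 8 members, SLC48A1, SREBF1, INSIG2, SCAP and pathway list genes that passed in any contrast; some list genes are not reported here and are left out of the list counts. Members and lists were chosen with earlier results of these data known. Symbols were matched to RefSeq GRCh38.p14 for 15163 of 15805 tested genes.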

Additional observations from a re-analysis of the deposited data

How the results depend on the processing

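The calls of SREBF2 and INSIG1 between genotypes kept their direction in every alternative fit, and lost the threshold only for SREBF2 with butyrate, as given above. LSS gained a call in the fits named above. Between control genotypes, 3 of the 8 genes passed without replicate 1 of all groups, against 2 in the main fit. No alternative called any of the 8 genes for butyrate or for the interaction. Differences within noise changed sign. SREBF2 for butyrate in WT was 0.0072 with median-of-ratios size factors, 0.013 with library size alone, 0.0064 by DESeq2, 0.0064 in the 2 groups alone and 0.058 under the stricter filter (10 counts or more in each library). Library size alone, which moved the median of all genes by 0.12 for butyrate in KO and 0.11 for the interaction, gave 0.041 for INSIG2 between butyrate groups, and interactions of 0.042 for MVD, 0.038 for SQLE, 0.042 for INSIG1 and 0.068 for IDI1.

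With libraries left out, all genes called ranged from 43 to 1884 for butyrate in WT, 48 to 2164 for butyrate in KO and 0 to 9 for the interaction. Other list genes called ranged from 0 to 10 and 0 to 12 for butyrate in WT and KO, and 2 to 9 and 3 to 10 between control and between butyrate genotypes. For butyrate in WT the log2 values ranged from -0.19 to 0.10 for SREBF2, -0.28 to 0.017 for MVD, -0.32 to 0.014 for IDI1 and -0.51 to 0.013 for LSS. For butyrate in KO they ranged from -0.64 to 0.17 for HMGCS1, -0.34 to 0.29 for MVD and -0.35 to 0.066 for IDI1. Between control genotypes they ranged from -0.064 to 0.34 for MVD, -0.017 to 0.38 for IDI1, -0.10 to 0.58 for SQLE and -0.57 to 0.047 for DHCR7. Between butyrate genotypes they ranged from -0.077 to 0.34 for MVD, -0.53 to 0.65 for SQLE, -0.40 to 0.0020 for DHCR7 and -0.19 to 0.12 for INSIG2. Interactions ranged from -0.20 to 0.80 for HMGCS1, -0.24 to 0.27 for MVD, -0.22 to 0.22 for IDI1, -0.85 to 0.37 for SQLE, -0.57 to 0.20 for LSS, -0.28 to 0.35 for DHCR7 and -0.48 to 0.33 for INSIG1.

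All genes called for butyrate in WT were 1296 by DESeq2, 63 in the 2 groups alone and 1361 with the replicate block, against 372. For butyrate in KO they were 304 with the stricter filter, 1490 by DESeq2 and 1852 with the block, against 537. Between genotypes the stricter filter gave 2334 (control) and 1947 (butyrate), the butyrate groups alone 1802 and the block 4612 (butyrate), against 3574 and 3009. For the interaction there were 2 without a filter, 1 with the stricter filter, 81 by DESeq2 and 3 with the block. Other list genes called were 5 and 4 by DESeq2 for butyrate in WT and KO, 0 and 4 in the 2 groups alone for butyrate in WT and between butyrate groups, and 7, 6, 11 and 12 with the block, in the order of the ranges above. The cause of these shifts was not tested.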

Other observations

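Of 11 genes of fatty acid synthesis, mostly SREBP1 targets, the desaturase genes FADS1 (log2 fold change -1.81, SE 0.52, edgeR adjusted p 0.0245) and FADS2 (-1.23, SE 0.33, edgeR adjusted p 0.0177) were lower in control KO than in control WT, and neither was called in cells given butyrate. Over all genes tested 22.6% were called between the control genotypes, which is near this count. FADS1 stood at 808, 355 and 699 CPM in control WT and at 120, 192 and 218 CPM in control KO. The 2 genes passed in 2 and 4 of the 6 leave-one-out fits, with up to 0.0948 and 0.0754 without replicate 1 of control KO. ME1, a malic enzyme gene, was 1.09 higher in butyrate KO (edgeR adjusted p 0.0479), a call that held in 1 of 6 such fits and fell to 0.50 (edgeR adjusted p 0.303) without replicate 2 of butyrate KO. All 11 values were negative for butyrate in WT (median -0.41, against 0.02 over all genes tested). In KO 9 of the 11 were negative (median -0.07, against 0.00). For butyrate 0 were called in either genotype in edgeR, beside 2.35% of all genes tested in WT and 3.40% in KO.

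Of 7 tested LXR targets and efflux genes, MYLIP, which encodes a ubiquitin ligase induced by LXR, rose with butyrate in both genotypes and was the 1 gene of the 7 called in each, beside 2.35% of all genes tested in WT and 3.40% in KO. It went from 44.9 ± 8.37 to 127 ± 28.4 CPM in WT (SD, n = 3; log2 fold change 1.50, SE 0.25, edgeR adjusted p 0.0126) and from 56.8 ± 11.7 to 131 ± 25.6 CPM in KO (1.20, SE 0.24, edgeR adjusted p 0.0234). It passed in 3 and 2 of the 6 leave-one-out fits, with up to 0.0704 without replicate 2 of control WT and 0.105 without replicate 2 of control KO. ABCA1, the cholesterol efflux pump gene, held 3, 6 and 35 counts in butyrate WT and 19, 179 and 170 counts in butyrate KO. Its log2 fold change of 2.96 (SE 0.88, edgeR adjusted p 0.0317) passed in 2 of 6 such fits, and the groups overlapped. Of 11 tested genes of the isoprenoid branch, 0 were called in any of the 5 comparisons in edgeR. Over all genes tested, 2.35% and 3.40% were called for butyrate in WT and KO. Between genotypes 22.6% were called in control cells and 19.0% with butyrate, and for the interaction 0%.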
